A study of Mus musculus with 19 samples.

Results

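The comparison rests on 9 arrays, 5 from Mb1-Cre tumour spleens and 4 from Sca1-Cre tumour spleens, out of 19 in the series. They were chosen by title: spleen carrying a tumour, from a mouse with a Rosa26-HGAL allele and either the Mb1-Cre or the Sca1-Cre driver. Every one of these mice carried the HGAL allele and a Cre, so the groups differ by driver and share the transgene. Each array was titled as a separate biological replicate and measured RNA of a whole spleen, tumour and host cells together. The labels gave no age or strain, and recorded housing in a conventional facility with exposure to common pathogens. The other arrays were 4 from Aid-Cre tumours, 3 from Sca1-Cre spleens before tumours arose and 3 from wild-type spleens. They entered the fit for its estimate of spread, and wild-type values are given as a point of orientation.

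HGAL (GCSAM) is an adaptor protein of human germinal centre B cells that binds Syk and modulates B cell receptor signalling and cell motility. The Mb1-Cre driver uses the locus of Cd79a, a B cell receptor chain that is switched on in early B cell precursors and stays on through the B lineage. The Sca1-Cre driver uses the promoter of Ly6a, the Sca1 antigen of haematopoietic stem and progenitor cells, so that recombination can reach all blood lineages. The comparison thus asks how spleens with tumours differ when the same transgene starts in the B lineage or in stem and progenitor cells. The spleen holds B cell follicles and T cell zones in its white pulp, and macrophages, granulocytes and erythroid precursors in its red pulp. In such bulk RNA, fewer cells of a type and less RNA per cell cannot be told apart.

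The arrays had similar distributions, with medians between 5.23 and 5.40 on the log2 scale and 40th percentiles between 4.72 and 4.90. A value below the range of these percentiles was taken as near background. The median standard deviation over genes was 0.17 among Mb1-Cre and 0.16 among Sca1-Cre tumours, and the lowest correlation between arrays of a group was 0.953 and 0.971. Y-linked signal was present in 4 of 5 Mb1-Cre, 2 of 4 Sca1-Cre and 3 of 3 wild-type arrays. The mean of 4 sex-linked genes was 5.74 in Mb1-Cre tumour 1 and 5.74 and 5.67 in Sca1-Cre tumours 1 and 3. In the other tumours of both groups it was 6.69 to 7.44. Mb1-Cre tumour 2 held transcripts of the exocrine pancreas: the mean of 13 such genes was 7.18 there, between 4.54 and 4.62 in the other Mb1-Cre tumours and between 4.48 and 4.58 in the Sca1-Cre tumours. The part of sex and of pancreatic tissue in each result below was not tested, beyond the fits that are given without them.

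The cell type in the label was checked first. Cd79a, the gene of the Mb1 driver, read 10.03, 11.25, 10.91, 9.89 and 10.76 in Mb1-Cre tumours, against 12.15, 11.75, 9.72 and 11.53 in Sca1-Cre tumours. All of these were far above background, and the groups overlapped. The difference, Mb1-Cre minus Sca1-Cre as throughout, was -0.72 ± 0.58 (standard error, as for every difference; limma adjusted p = 0.537). Only the Mb1-Cre mice carried a driver at the Cd79a locus, so driver allele and B cell content cannot be told apart in this difference. Ptprc, the CD45 antigen of all leukocytes, lay between 11.11 and 12.23 in Mb1-Cre and between 12.02 and 12.10 in Sca1-Cre tumours. For Ly6a, the gene of the other driver, no probe set named it alone, and it is left out. The human transgene itself was not analysed here.

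Across 22180 genes, limma called 9 (0.0406%) at an adjusted p under 0.05, 5 higher (0.0225%) and 4 lower (0.018%) in Mb1-Cre tumours. At an unadjusted p under 0.05 there were 3893 genes, 1581 higher (7.13%) and 2312 lower (10.4%). The groups did not overlap for 1287 genes (5.8%), 540 higher (2.43%) and 747 lower (3.37%). At an adjusted p under 0.1 there were 398 genes (1.79%), 111 higher and 287 lower (1.29%). These percentages are the background for counts over all 9 arrays. With 1 array left out the background of genes without overlap is itself larger. Among all genes without overlap, the lower share was 6.22%, 4.33%, 3.82%, 3.77% and 5.78% without Mb1-Cre tumours 1 to 5, and 4%, 5.12%, 7.36% and 4.11% without Sca1-Cre tumours 1 to 4. The higher share was 4.09%, 3.54%, 3.66%, 2.93% and 3.88% without Mb1-Cre tumours 1 to 5, and 3.78%, 3.72%, 5.21% and 3.2% without Sca1-Cre tumours 1 to 4. Counts given without an array are to be read against these. Leaving out an array cannot lower a count of genes without overlap. For a list, such a count in parentheses is the highest over the 9 left-out arrays. The median difference over all genes was 0.01, and 51.7% of genes had a difference above 0.

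Ifi202b, an interferon-inducible gene of the p200 family whose level depends on mouse strain, had the largest of the 9 called differences. It read 6.44, 5.47, 5.11, 5.91 and 5.34 in Mb1-Cre tumours, against 3.45, 3.18, 3.40 and 3.49 in Sca1-Cre tumours. Every Sca1-Cre value was near background, and no Mb1-Cre value came within 1 log2 unit of them. The difference was 2.27 ± 0.31 (limma adjusted p = 0.019), and wild-type spleens averaged 4.25 ± 0.58 (SD, n = 3). Of the 4 measured genes with strain-dependent transcripts, Ifi202b among them, 2 had a difference above 0 and 2 below, the lowest at -0.91. Only Ifi202b was called, but with 9 calls over all genes the lack of a call says little about the others. The strain background of the groups was not given in the labels, and its part in the difference of Ifi202b was not tested.

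Apol9a, an interferon-inducible apolipoprotein L, gave the smallest p. Its values were 6.90, 7.32, 7.40, 7.52 and 7.33 in Mb1-Cre tumours, against 6.38, 6.40, 6.50 and 6.37 in Sca1-Cre tumours. The Sca1-Cre tumours lay close together and below each Mb1-Cre tumour, a difference of 0.88 ± 0.11 (1.84-fold, limma adjusted p = 0.0153). G0s2, an inhibitor of the triglyceride lipase ATGL, read 7.68, 7.58, 7.77, 7.25 and 7.41 in Mb1-Cre tumours, against 6.79, 6.73, 6.87 and 6.42 in Sca1-Cre tumours (difference 0.84 ± 0.12, limma adjusted p = 0.0257). Aldh3b3, an aldehyde dehydrogenase, read 5.72, 5.78, 5.87, 6.08 and 5.96 in Mb1-Cre tumours, against 5.32, 5.45, 5.46 and 5.04 in Sca1-Cre tumours (0.57 ± 0.09, limma adjusted p = 0.0475). The pseudogene Rbx1-ps was also called, with 1.17 ± 0.19 (limma adjusted p = 0.0375). Its Sca1-Cre values of 3.73 to 3.90 were near background, and its signal may be shared with near-identical copies.

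On the lower side, Eif4a2, a helicase of the translation initiation complex, was called. It read 9.52, 9.75, 10.03, 9.14 and 9.78 in Mb1-Cre tumours, against 10.76, 10.68, 10.58 and 11.14 in Sca1-Cre tumours. The highest Mb1-Cre tumour stayed below the lowest Sca1-Cre tumour, and the wild-type mean of 10.54 was near the Sca1-Cre mean of 10.79 (difference -1.14 ± 0.18, 2.21-fold, limma adjusted p = 0.0375). Rpp14, a subunit of ribonuclease P, read 6.55, 6.50, 6.40, 6.35 and 6.64 in Mb1-Cre tumours, against 7.34, 7.01, 6.75 and 7.43 in Sca1-Cre tumours (-0.65 ± 0.11, limma adjusted p = 0.0475). The remaining lower calls, BC064078 (-0.83 ± 0.13, limma adjusted p = 0.0375) and Gm6644 (-0.80 ± 0.13, limma adjusted p = 0.0475), have provisional symbols and were named after their values were seen. BC064078 averaged 8.02 in Mb1-Cre tumours, 8.85 in Sca1-Cre tumours and 7.97 in wild-type spleens.

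The count of calls turned on single arrays. Without Sca1-Cre tumour 1 or Sca1-Cre tumour 4 limma called 0 genes (3152 and 2437 at an unadjusted p under 0.05), and without Sca1-Cre tumour 2 or Sca1-Cre tumour 3 it called 63 and 44. It called 22 without Mb1-Cre tumour 1, 4 without Mb1-Cre tumour 3 or 4, and 2 without Mb1-Cre tumour 5. With both arrays that held pancreatic transcripts left out, Mb1-Cre tumour 2 and wild type 2, it called 0 (3421 at an unadjusted p under 0.05), and without Mb1-Cre tumour 2 alone it called 12. Over the 9 fits that each left out 1 array, Apol9a and Ifi202b stayed called in 7, Rpp14 and Gm6644 in 3, and the other 5 genes in 4 or 5. No call among the 9 changed its sign in any of them. With sex as a covariate 33 genes were called, all 9 among them.

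**Figure D1:**
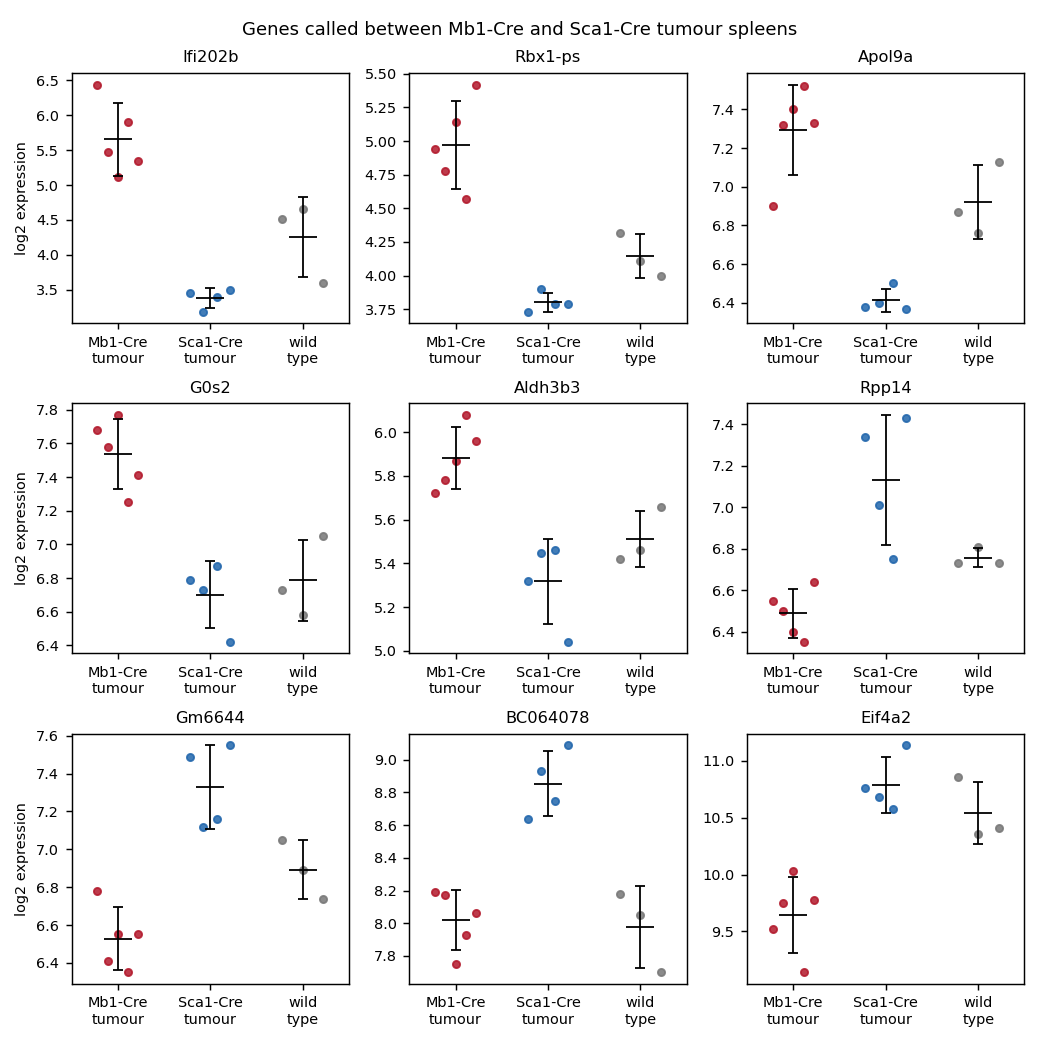
Log2 expression of the 9 called genes in each spleen, with 5 Mb1-Cre tumours (red), 4 Sca1-Cre tumours (blue) and 3 wild-type spleens (grey); bars are the group mean and 1 SD. In each panel the red and blue points do not overlap, and the red points are higher in 5 panels and lower in 4.

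The genes next by p missed the threshold and are given as values. On the higher side, Ncf4, a subunit of the phagocyte NADPH oxidase, read 10.22, 9.76, 10.13, 10.06 and 10.08 in Mb1-Cre tumours, against 9.15, 9.76, 9.62 and 9.07 in Sca1-Cre tumours (0.65 ± 0.13, limma adjusted p = 0.0617). Il27, a cytokine subunit made by myeloid cells, differed by 0.52 ± 0.10, Mst1r, a receptor tyrosine kinase of macrophages, by 0.39 ± 0.07, Fmo5, a flavin monooxygenase, by 0.75 ± 0.14, and Mbd6 by 0.57 ± 0.11 (limma adjusted p = 0.0602 for each). On the lower side, Denr, a factor of ribosome recycling and reinitiation, differed by -0.50 ± 0.09, and Utp3, of the small-subunit processome, by -0.61 ± 0.11 (limma adjusted p = 0.0528 for each). Eif3e, a subunit of initiation factor 3, differed by -0.80 ± 0.15, Mrps23, of the mitochondrial ribosome, by -0.56 ± 0.11, and Prrc2b by -0.53 ± 0.10 (limma adjusted p = 0.0602 for each). Thap12, Hacd3 and Zfp954 differed by -0.58 ± 0.11, -0.83 ± 0.16 and -1.07 ± 0.20.

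Gene lists of cell types and pathways were described by counts, with no test of a list. Counts at an unadjusted p under 0.05 are to be read against 7.13% of all genes higher and 10.4% lower. No list had a called member apart from the strain-dependent one with Ifi202b, and the 3 families drawn up by symbol had 0. Of the 42 lists, 6 had all measured members above 0 and 7 had all below. Members of a list are not independent of each other, because they follow the same cells in the same spleens.

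**Figure D2:**
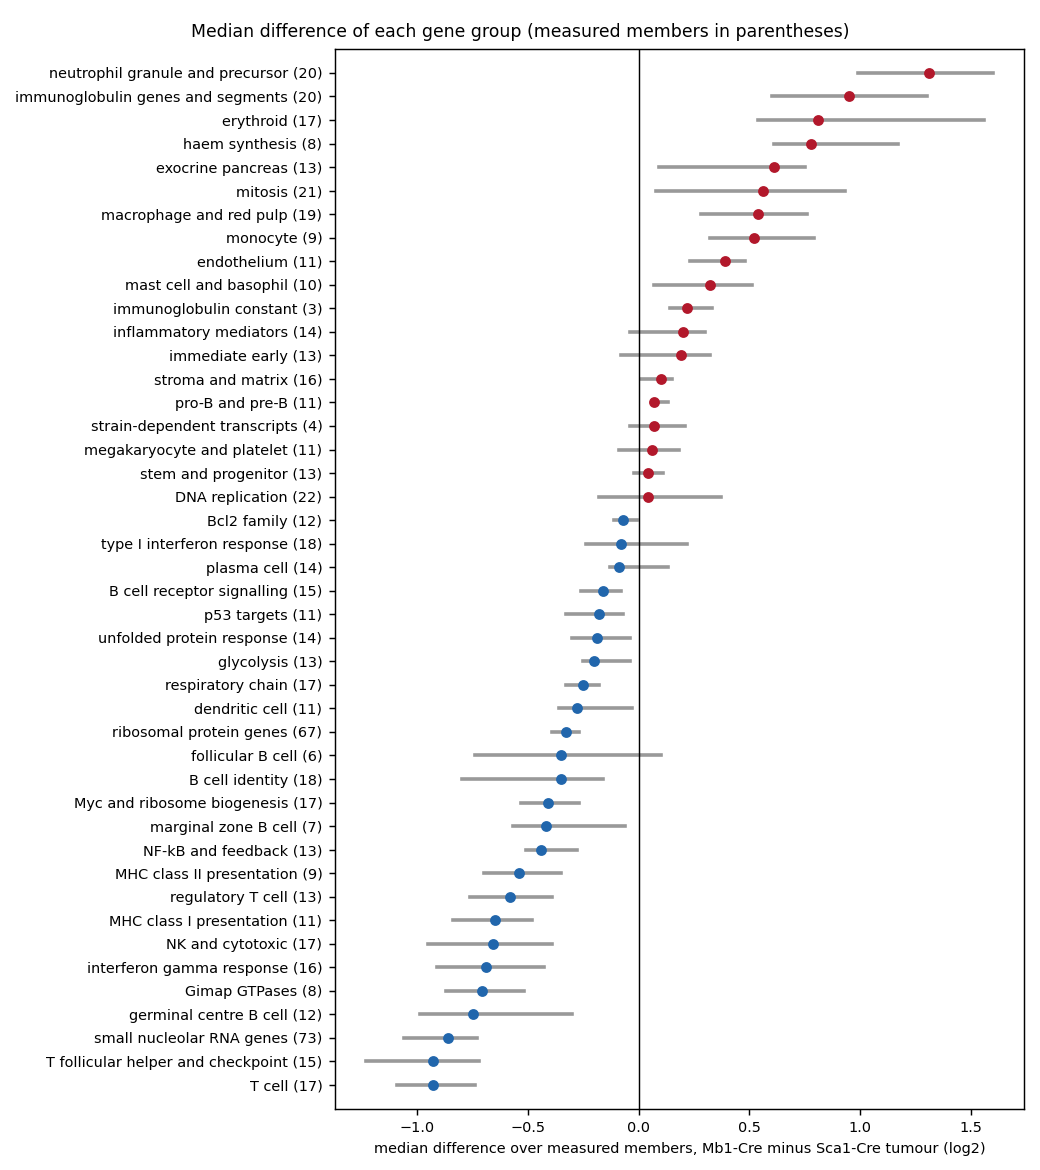
Median log2 difference, Mb1-Cre minus Sca1-Cre tumour, over the measured members of each list or family (points; red above 0, blue below), with the range of that median when 1 array is left out (grey lines). Neutrophil genes lie at the top with 1.31 and T cell genes at the bottom with -0.93, against a median of 0.01 over all genes.

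Genes of neutrophil granules and precursors had the highest median of all lists. All 20 measured members had a difference above 0 with a median of 1.31, and 0 were called by limma. Between the groups 9 did not overlap, where the higher share over all genes was 2.43%. An unadjusted p under 0.05 was reached by 7, against 7.13% higher over all genes. Ly6g, the surface antigen that defines mouse neutrophils, read 9.90, 9.86, 10.19, 10.76 and 10.74 in Mb1-Cre tumours, against 6.87, 8.71, 9.43 and 7.59 in Sca1-Cre tumours. Each Mb1-Cre tumour was above each Sca1-Cre tumour, while the Sca1-Cre tumours spread widely (2.14 ± 0.96, 4.40-fold, limma adjusted p = 0.263). Mmp9, the gelatinase of neutrophil granules, read 10.57 to 11.20 over the Mb1-Cre tumours, against 8.43, 9.89, 10.23 and 8.46 in Sca1-Cre tumours (1.68 ± 0.75, limma adjusted p = 0.265). Padi4, which citrullinates histones in neutrophils, differed by 1.37 ± 0.44 without overlap (limma adjusted p = 0.14). Cebpe, a transcription factor of granulocyte maturation, overlapped between the groups (0.89 ± 0.34, limma adjusted p = 0.196), and S100a8 and S100a9, the calprotectin subunits, differed by 0.88 ± 0.71 and 0.79 ± 0.60. The mean of the list was 10.04 to 10.95 over the Mb1-Cre tumours, 8.11, 9.89, 9.95 and 8.45 in the Sca1-Cre tumours and averaged 8.40 in wild-type spleens. Sca1-Cre tumours 1 and 4 were thus low, and the other pair came close to the Mb1-Cre tumours. All 20 members kept a difference above 0 whichever array was left out.

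Promoter sequence was searched for the motif of C/EBP factors, which drive granulocyte genes, since these genes differed together. Windows of 250 bases before the gene start came from RefSeq (GRCm38.p6), taking the first window listed for a gene. The motif TTGCNNAA was searched on both strands, and 7 of the 18 neutrophil genes with a window held it, as did 9.55% of the 27025 genes in the table. The 7 were S100a9, Ly6g, Ltf, Ngp, Lcn2, Mmp8 and Retnlg. The windows of Ly6g, chr15:75155011-75155260 (plus strand), and Lcn2, chr2:32387740-32387989 (minus strand), are shown 5′ to 3′ with the match in capitals, starting 232 and 216 bases before the gene start. A match is a string in the window, not a bound site.
Ly6g: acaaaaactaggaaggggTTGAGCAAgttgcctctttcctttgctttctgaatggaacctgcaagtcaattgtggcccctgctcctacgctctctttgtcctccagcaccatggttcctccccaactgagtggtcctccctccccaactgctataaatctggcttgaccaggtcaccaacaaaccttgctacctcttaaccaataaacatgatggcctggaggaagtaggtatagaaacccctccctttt
Lcn2: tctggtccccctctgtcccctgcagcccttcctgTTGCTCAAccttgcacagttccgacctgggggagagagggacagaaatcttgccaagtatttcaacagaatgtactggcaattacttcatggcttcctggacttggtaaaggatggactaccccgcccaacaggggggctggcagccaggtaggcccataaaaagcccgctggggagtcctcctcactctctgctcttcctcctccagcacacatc

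Other red pulp and myeloid lists also had medians above 0. Of 19 macrophage and red pulp genes, 18 had a difference above 0 with a median of 0.54. Between the groups 1 did not overlap (3 without Mb1-Cre tumour 3), where the higher share over all genes was 2.43% (3.66%). An unadjusted p under 0.05 was reached by 5, and 0 were called by limma. The median was 0.28 without Mb1-Cre tumour 2. Cd163, the haemoglobin scavenger receptor, read 7.08, 7.93, 6.46, 7.14 and 7.23 in Mb1-Cre tumours, against 6.41, 6.35, 6.05 and 5.53 in Sca1-Cre tumours (1.08 ± 0.32, limma adjusted p = 0.12). The groups did not overlap, though Mb1-Cre tumour 3 and Sca1-Cre tumour 1 were close. Slc40a1, the iron exporter ferroportin, Vcam1 and Cd68 differed by 0.90 ± 0.41, 0.85 ± 0.45 and 0.55 ± 0.25, with overlap. Sirpa, a receptor of myeloid cells that binds CD47, differed by 0.60 ± 0.25, and Spic, the transcription factor of red pulp macrophages, by 0.22 ± 0.38. Monocyte genes had 8 of 9 differences above 0 with a median of 0.52, which was 0.32 without Sca1-Cre tumour 4. Without Sca1-Cre tumour 3 it was 0.79, and 3 had no overlap, against a higher share of 5.21% over all genes. Endothelial genes had 11 of 11 above 0 with a median of 0.39, or 0.23 without Mb1-Cre tumour 2. Of them 1 did not overlap (4 without Mb1-Cre tumour 3), against 2.43% (3.66%) of all genes, and 5 had an unadjusted p under 0.05.

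Erythroid genes were variable within both groups. All 17 had a difference above 0 with a median of 0.81, but 0 had groups that did not overlap and 0 had an unadjusted p under 0.05. Klf1, the master transcription factor of red cell precursors, read 5.60, 8.61, 9.77, 10.52 and 10.12 in Mb1-Cre tumours, against 6.04, 9.28, 8.90 and 6.47 in Sca1-Cre tumours. Mb1-Cre tumour 1 was the lowest of the 9, and Sca1-Cre tumours 1 and 4 were next. The mean of the list was 7.78 in Mb1-Cre tumour 1 and 10.23 to 11.41 in the other Mb1-Cre tumours, against 8.49, 10.68, 10.13 and 8.60 in Sca1-Cre tumours. Without Mb1-Cre tumour 1 the median was 1.56. Haem synthesis genes had 8 of 8 above 0 with a median of 0.78. Genes of mitosis had 21 of 21 above 0 with a median of 0.56 and 0 not overlapping, and their list mean followed the erythroid one in part: it was 7.50 in Mb1-Cre tumour 1 and 6.88 in Sca1-Cre tumour 1, and 8.91 to 8.93 in the other Sca1-Cre tumours. The mitosis median was 0.08 without Sca1-Cre tumour 1 and 0.93 without Mb1-Cre tumour 1. Aurka, a mitotic kinase, differed by 0.84 ± 0.59 and Cdk1, the mitotic cyclin-dependent kinase, by 0.58 ± 0.72 (limma adjusted p = 0.481 and 0.706). DNA replication genes had a median of 0.04, which was -0.18 with 20 of 22 below 0 without Sca1-Cre tumour 1, and 0.37 with 21 of 22 above 0 without Mb1-Cre tumour 1.

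B cell identity genes had a median of -0.35, with 17 of 18 below 0, 0 not overlapping and 0 with an unadjusted p under 0.05. The list mean was 8.49 to 9.94 in Mb1-Cre tumours, against 8.46 in Sca1-Cre tumour 3 and 9.89 to 10.36 in the other Sca1-Cre tumours. The median was -0.80 without Sca1-Cre tumour 3, where 6 genes had no overlap, against a lower share of 7.36% over all genes. It was -0.18 without Mb1-Cre tumour 4 and -0.16 without Sca1-Cre tumour 1. Ms4a1, which encodes CD20, read 10.26, 11.04, 10.98, 9.50 and 10.40 in Mb1-Cre tumours, against 11.80, 11.43, 9.85 and 11.64 in Sca1-Cre tumours (-0.74 ± 0.56). Spib, a transcription factor of B cells, differed by -0.73 ± 0.52, Pou2af1, a coactivator of immunoglobulin genes, by -0.59 ± 0.45, and Ly6d by -0.79 ± 0.62.

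Immunoglobulin genes and segments had the opposite sign to B cell identity. The family was drawn up by symbol after the values were seen, and its segments resemble each other in sequence, so single members cannot be told apart with certainty. All 20 differences were above 0 with a median of 0.95, and 0 were called by limma. Between the groups 4 did not overlap, where the higher share over all genes was 2.43%. An unadjusted p under 0.05 was reached by 12, against 7.13% higher over all genes. The family mean was 10.38 to 11.02 in Mb1-Cre tumours, against 10.73, 10.10, 8.68 and 9.24 in Sca1-Cre tumours, so the groups overlapped. The gene with the largest difference was Ighg3, the constant region of IgG3. It read 12.19, 10.47, 11.84, 11.34 and 11.22 in Mb1-Cre tumours, against 8.69, 8.01, 6.01 and 9.22 in Sca1-Cre tumours. No Sca1-Cre tumour came within 1 log2 unit of the lowest Mb1-Cre tumour, and wild-type spleens, with 9.72 on average, lay between the groups. The difference was 3.43 ± 0.64 (10.8-fold, limma adjusted p = 0.0602). The list of immunoglobulin constant genes had 3 measured members, Ighg3 among them, with a median of 0.22 and a lowest difference of 0.15. The kappa variable segment Igkv4-72 read 12.21 to 12.77 in Mb1-Cre and 10.90 to 11.95 in Sca1-Cre tumours (0.90 ± 0.20, limma adjusted p = 0.0617). Without Sca1-Cre tumour 3 the family's median was 0.60. Without Sca1-Cre tumour 1 the groups did not overlap for 9 genes, where the higher share over all genes was 3.78%. Plasma cell genes, which follow cells that secrete antibody, had a median of -0.09, with 6 above 0 and 8 below, and the median was 0.13 without Sca1-Cre tumour 3.

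Germinal centre B cell genes were highest in 1 array. Of 12 measured, 11 had a difference below 0 with a median of -0.75, 0 did not overlap, 4 had an unadjusted p under 0.05 and 0 were called by limma. The list mean was 6.50 to 6.70 in Mb1-Cre tumours, against 6.79, 6.82, 6.85 and 9.27 in Sca1-Cre tumours. Gcsam, the mouse HGAL, read 5.12, 5.90, 5.34, 5.60 and 5.65 in Mb1-Cre tumours, against 5.74, 5.82, 6.38 and 10.41 in Sca1-Cre tumours (-1.56 ± 0.66, limma adjusted p = 0.241). Among the 9 spleens only Sca1-Cre tumour 4 was far above the rest, and the wild-type mean was 5.76. S1pr2, a sphingosine phosphate receptor that keeps B cells in the germinal centre, read 7.02 to 7.21 in Mb1-Cre tumours, against 7.19, 7.23, 8.08 and 9.37 in Sca1-Cre tumours, so that Sca1-Cre tumour 3 was above every Mb1-Cre tumour too. For Fas, the death receptor, 3 Sca1-Cre tumours lay above all Mb1-Cre tumours, with 7.99, 7.26, 7.36, 7.0 and 7.18 in Mb1-Cre tumours, against 7.84, 8.25, 8.31 and 9.41 in Sca1-Cre tumours (-1.09 ± 0.28, limma adjusted p = 0.0911). Without Sca1-Cre tumour 4 the list's median was -0.30, with 8 of 12 below 0, and Bcl6, the germinal centre repressor, stood at 0.06 there.

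**Figure D3:**
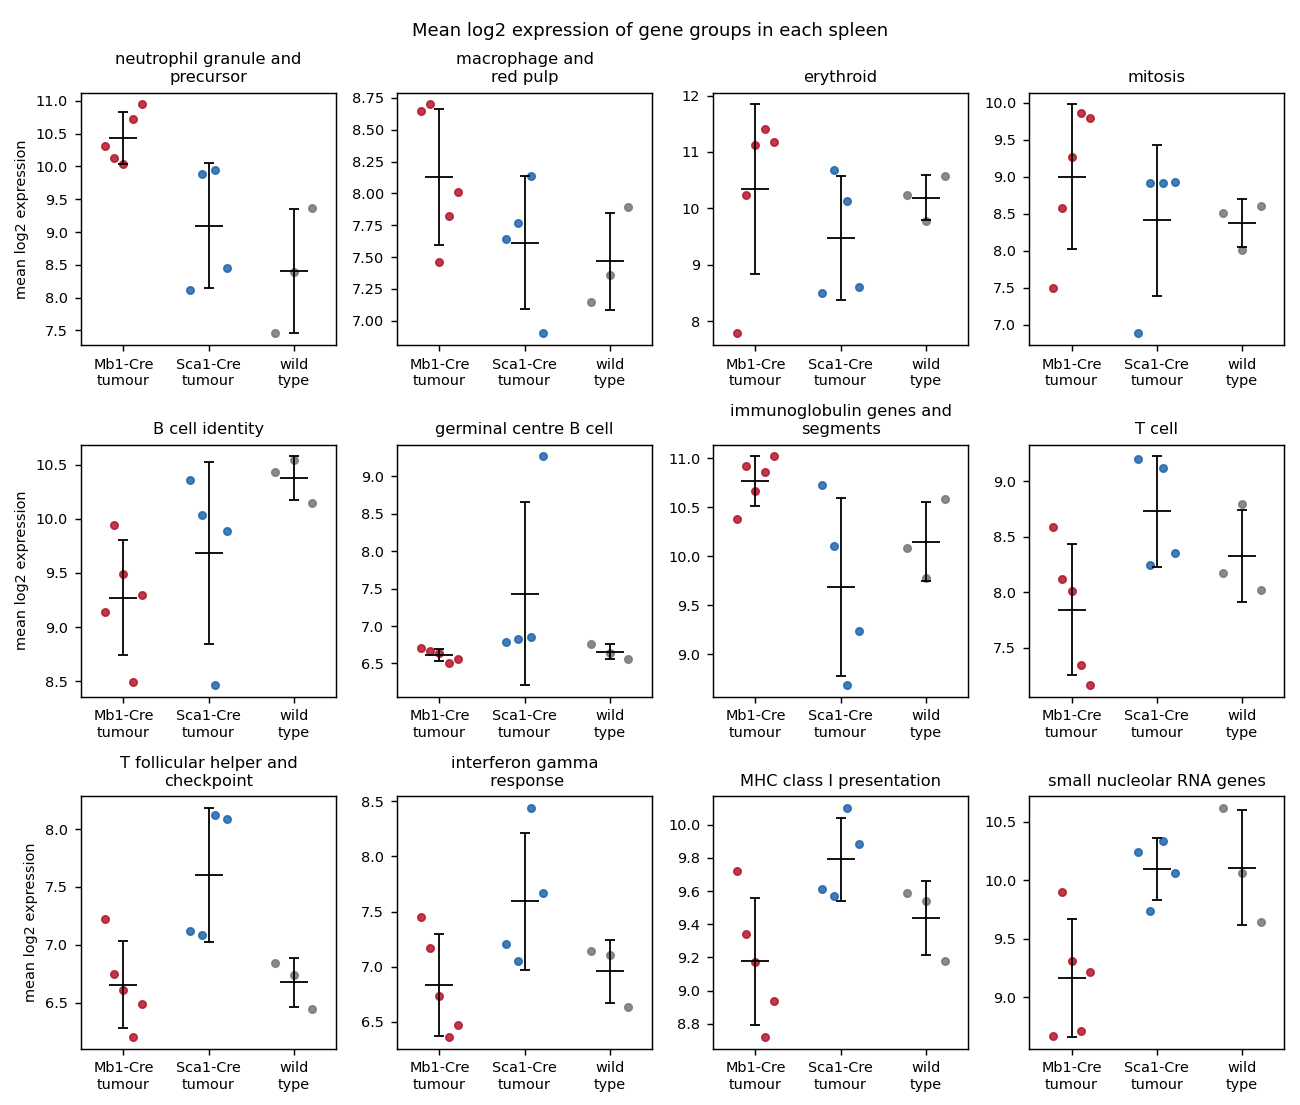
Mean log2 expression of 12 lists or families in each spleen, with 5 Mb1-Cre tumours (red), 4 Sca1-Cre tumours (blue) and 3 wild-type spleens (grey); bars are the group mean and 1 SD. Neutrophil means of the tumour groups do not overlap, the germinal centre mean is high in Sca1-Cre tumour 4 alone at 9.27, erythroid means are low in Mb1-Cre tumour 1 and in Sca1-Cre tumours 1 and 4, and mitosis means in Mb1-Cre tumour 1 and Sca1-Cre tumour 1.

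T cell genes gave the lowest medians. All 17 measured T cell genes had a difference below 0 with a median of -0.93. Only 1 did not overlap, where the lower share over all genes was 3.37%, 9 had an unadjusted p under 0.05 and 0 were called by limma. Cd4, the coreceptor of helper T cells, read 8.51, 8.75, 7.97, 7.82 and 7.98 in Mb1-Cre tumours, against 10.16, 9.15, 10.06 and 9.52 in Sca1-Cre tumours. Each Sca1-Cre tumour was above each Mb1-Cre tumour, and the wild-type mean of 8.28 was near the Mb1-Cre mean (-1.52 ± 0.41, 2.86-fold, limma adjusted p = 0.0991). Cd3e, Cd3d and Cd3g, chains of the T cell receptor complex, differed by -1.29 ± 0.44, -1.25 ± 0.43 and -1.28 ± 0.50, with overlap. Cd6, Zap70 and Cd28, of T cell receptor signalling and costimulation, differed by -1.11 ± 0.34, -0.93 ± 0.28 and -0.88 ± 0.28. The list mean was 7.16 to 8.59 in Mb1-Cre and 8.25 to 9.20 in Sca1-Cre tumours. The number of genes without overlap was 9 without Mb1-Cre tumour 1, 5 without Sca1-Cre tumour 2 and 2 without Sca1-Cre tumour 4, where the lower share over all genes was 6.22%, 5.12% and 4.11%. Over all left-out arrays the median stayed between -1.09 and -0.74.

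Genes of follicular helper T cells and checkpoint receptors gave the same median. All 15 measured had a difference below 0 (median -0.93), and 8 had an unadjusted p under 0.05. Between the groups 2 did not overlap (6 without Mb1-Cre tumour 1), against 3.37% (6.22%) of all genes. Icos, the costimulator of follicular helper cells, read 7.09, 6.69, 6.90, 5.94 and 6.66 in Mb1-Cre tumours, against 7.72, 7.53, 8.92 and 8.78 in Sca1-Cre tumours (-1.58 ± 0.34, 2.99-fold, limma adjusted p = 0.0617). Il21, their cytokine, read 5.09, 4.51, 5.17, 4.65 and 4.80 in Mb1-Cre tumours, against 5.31, 5.61, 6.05 and 8.01 in Sca1-Cre tumours (-1.40 ± 0.42, limma adjusted p = 0.122). Neither gene overlapped between groups, and for Il21 Sca1-Cre tumour 4 was the highest by far. Il21 was near background in Mb1-Cre tumours 2 and 4. Pdcd1, which encodes PD-1, read 7.65, 6.47, 6.38, 6.94 and 6.68 in Mb1-Cre tumours, against 6.85, 7.37, 9.63 and 9.05 in Sca1-Cre tumours (-1.40 ± 0.50, limma adjusted p = 0.177). Tox, a factor of persistent T cell activation, and Sh2d1a, the adaptor SAP, differed by -1.37 ± 0.40 and -1.10 ± 0.30. Cxcr5, which both B and T follicular cells carry, differed by -0.48 ± 0.50.

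Regulatory T cell genes had a median of -0.58 with 12 of 13 below 0. Among the 13, 1 did not overlap (3 without Mb1-Cre tumour 1), against 3.37% (6.22%) of all genes. Itgae, the integrin CD103, read 5.57 to 6.02 in Mb1-Cre and 6.10 to 6.80 in Sca1-Cre tumours, without overlap (-0.72 ± 0.17, limma adjusted p = 0.0772). Foxp3, the defining factor of these cells, differed by only -0.25 ± 0.26, and Ikzf2 and Ctla4 by -1.22 ± 0.43 and -0.93 ± 0.36. All 17 NK and cytotoxic genes were below 0 with a median of -0.66, 6 with an unadjusted p under 0.05 and 0 without overlap. The median was -0.39 without Sca1-Cre tumour 3. Without Mb1-Cre tumour 1, 5 genes had no overlap, where the lower share over all genes was 6.22%. Gzmb, the granzyme B of cytotoxic cells, read 8.26, 5.74, 6.01, 6.54 and 4.93 in Mb1-Cre tumours, against 6.85, 5.58, 9.78 and 7.39 in Sca1-Cre tumours. Mb1-Cre tumour 1 and Sca1-Cre tumour 3 stood high in their groups (-1.11 ± 0.71, limma adjusted p = 0.438). The 8 Gimap GTPases, of lymphocyte survival, all lay below 0 with a median of -0.71. Of these 1 did not overlap (5 without Mb1-Cre tumour 1), against 3.37% (6.22%) of all genes.

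Interferon gamma targets and antigen presentation genes had differences below 0 in most members. Of 16 interferon gamma response genes, 15 had a difference below 0 with a median of -0.69, and 8 had an unadjusted p under 0.05. Between the groups 2 did not overlap (6 without Mb1-Cre tumour 1), against 3.37% (6.22%) of all genes. They were Psmb9, which is also in the class I list below, and Gbp6. Gbp6 was near background in every tumour, with 3.06 to 3.29 in Mb1-Cre and 3.35 to 3.82 in Sca1-Cre tumours. Ifng itself read 6.59, 4.90, 5.26, 5.14 and 5.12 in Mb1-Cre tumours, against 6.55, 5.27, 8.19 and 6.25 in Sca1-Cre tumours (-1.16 ± 0.45, limma adjusted p = 0.203). It was highest in Sca1-Cre tumour 3, without which the list median was -0.43. Irf1, a transcription factor that interferon gamma induces, differed by -0.69 ± 0.30, and type I interferon genes had a median of -0.08 with 6 of 18 above 0, or 0.22 with 11 above 0 without Sca1-Cre tumour 3.

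Psmb9, a subunit of the immunoproteasome, read 8.64, 8.08, 8.12, 7.76 and 8.10 in Mb1-Cre tumours, against 8.72, 8.77, 9.53 and 9.57 in Sca1-Cre tumours. The groups did not overlap, with Mb1-Cre tumour 1 and Sca1-Cre tumour 1 the closest pair, and the difference of means was -1.01 ± 0.24 (2.02-fold, limma adjusted p = 0.0772). Of 11 MHC class I presentation genes, all were below 0 with a median of -0.65, and 8 had an unadjusted p under 0.05. Between the groups 5 did not overlap (9 without Mb1-Cre tumour 1), against 3.37% (6.22%) of all genes. The count stayed at 5 when any other array was left out. Psmb8, another immunoproteasome subunit, and Erap1, the peptide trimming peptidase, differed by -0.80 ± 0.22 and -0.80 ± 0.21 without overlap (limma adjusted p = 0.101 and 0.0938). For Psmb8 the groups nearly touched, with a highest Mb1-Cre value of 9.80 and a lowest Sca1-Cre value of 9.81. H2-T23, which encodes the nonclassical molecule Qa-1, differed by -0.47 ± 0.15 (limma adjusted p = 0.136), and H2-K1 by -0.56 ± 0.29. B2m, the light chain of class I molecules, read 12.70 to 13.21 in Mb1-Cre and 12.88 to 13.21 in Sca1-Cre tumours (-0.06 ± 0.12). All 9 MHC class II genes were below 0 with a median of -0.54, or -0.35 without Mb1-Cre tumour 4, and 0 did not overlap (8 without Sca1-Cre tumour 3, against 7.36% of all genes). All 13 NF-kB genes were below 0 with a median of -0.44, which was -0.28 without Mb1-Cre tumour 4. Of these genes 1 did not overlap (6 without Mb1-Cre tumour 1), against 3.37% (6.22%) of all genes.

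The interferon-stimulated response element, taken as GAAA, any 2 bases and GAAA again on either strand, was present in 2 of the 9 class I genes with a window and in 3.04% of the 27025 genes. The windows of H2-T23, chr17:36032702-36032951 (minus strand), and B2m, chr2:122147437-122147686 (plus strand), are shown 5′ to 3′ with the match in capitals, starting 124 and 139 bases before the gene start. H2-T23 had groups without overlap that nearly touched (highest Mb1-Cre value 8.83, lowest Sca1-Cre value 8.85). B2m had a difference smaller than its error.
H2-T23: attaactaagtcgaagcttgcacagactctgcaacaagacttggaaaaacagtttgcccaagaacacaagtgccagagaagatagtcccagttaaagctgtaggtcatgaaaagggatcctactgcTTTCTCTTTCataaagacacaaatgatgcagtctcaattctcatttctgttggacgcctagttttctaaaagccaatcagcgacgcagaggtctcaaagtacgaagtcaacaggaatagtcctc
B2m: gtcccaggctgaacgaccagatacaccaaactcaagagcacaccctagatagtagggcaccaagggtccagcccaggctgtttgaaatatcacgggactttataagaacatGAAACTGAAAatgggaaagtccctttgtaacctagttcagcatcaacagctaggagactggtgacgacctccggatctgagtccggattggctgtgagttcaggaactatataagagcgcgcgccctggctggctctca

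Genes of ribosome biogenesis also had most differences below 0. Of 17 genes in the Myc and ribosome biogenesis list, 14 had a difference below 0 with a median of -0.41. Between the groups 3 did not overlap, where the lower share over all genes was 3.37%. An unadjusted p under 0.05 was reached by 10, against 10.4% lower over all genes. Ddx21, a helicase of ribosomal RNA processing, read 8.67, 8.68, 8.58, 8.46 and 8.91 in Mb1-Cre tumours, against 9.21, 8.95, 9.08 and 9.67 in Sca1-Cre tumours (-0.56 ± 0.13, limma adjusted p = 0.0628). Npm1, the nucleolar chaperone, and Rrs1 differed by -0.54 ± 0.15 and -0.49 ± 0.15 without overlap (limma adjusted p = 0.11 and 0.123). For Npm1 the groups nearly touched, with a highest Mb1-Cre value of 9.92 and a lowest Sca1-Cre value of 9.93. Ncl, nucleolin, differed by -0.50 ± 0.15. Myc itself differed by 0.02 ± 0.33. Without Sca1-Cre tumour 4 the list median was -0.27. The number of genes without overlap was 6 without Mb1-Cre tumour 5 and 5 without Sca1-Cre tumour 3. There the lower share over all genes was 5.78% and 7.36%. The E-box CACGTG, which Myc binds, was in 0 of the 13 windows of this list and in 6.05% of all genes. The windows held only sequence before the gene start, so an E-box after the start could not be found. Whether Myc acts on these genes was not tested.

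Small nucleolar RNA genes, whose products guide the modification of ribosomal RNA, were gathered as a family by symbol after the values were seen. Of 73 genes, 72 had a difference below 0 with a median of -0.86. Between the groups 22 did not overlap, where the lower share over all genes was 3.37%. An unadjusted p under 0.05 was reached by 51, against 10.4% lower over all genes. An adjusted p under 0.1 was reached by 20 (1.29% of all genes were lower at that threshold), and 0 were called by limma. The family mean was 8.67 to 9.90 in Mb1-Cre and 9.74 to 10.34 in Sca1-Cre tumours, so the groups overlapped. Snord37 read 5.59, 5.61, 5.69, 5.53 and 5.56 in Mb1-Cre tumours, against 7.10, 7.08, 7.56 and 7.59 in Sca1-Cre tumours. The Mb1-Cre tumours lay close together, below the wild-type mean of 6.84 (-1.74 ± 0.30, 3.33-fold, limma adjusted p = 0.0528). Snord92, Snord69 and Snord15a differed by -2.0 ± 0.37, -1.67 ± 0.33 and -1.33 ± 0.24 (limma adjusted p = 0.0602, 0.0617 and 0.0602). Without Mb1-Cre tumour 2, the number of genes without overlap was 50, and the lower share over all genes was 4.33%. By position in the GRCm38.p6 gene table, 46 of the 73 lay within 1 measured protein-coding gene, and these 38 hosts had a median of -0.32, with 34 below 0 and 21 of them at an unadjusted p under 0.05. Their small nucleolar RNA genes had a median of -0.90, and 38 of 46 were below their host. Strand was not used in this match, and the extraction of short RNA can differ between samples in ways that were not tested here.

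Ribosomal protein genes had 62 of 67 differences below 0 with a median of -0.33, and 0 were called by limma. Between the groups 14 did not overlap, where the lower share over all genes was 3.37%. An unadjusted p under 0.05 with a lower value was reached by 38, against 10.4% over all genes. They too were gathered by symbol afterwards, and many have near-identical pseudogenes whose signal cannot be told apart from theirs. Rps25 read 8.25, 8.55, 8.31, 8.19 and 8.42 in Mb1-Cre tumours, against 9.06, 8.78, 8.74 and 9.31 in Sca1-Cre tumours (-0.63 ± 0.13, limma adjusted p = 0.0617). Rps20 differed by -1.96 ± 0.43, with a value near background in Mb1-Cre tumour 1 (4.29), and Rpl15 and Rpl7 by -0.54 ± 0.13 and -0.53 ± 0.13. The number without overlap was 35 without Sca1-Cre tumour 3 and 23 without Mb1-Cre tumour 1, where the lower share over all genes was 7.36% and 6.22%.

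**Figure D4:**
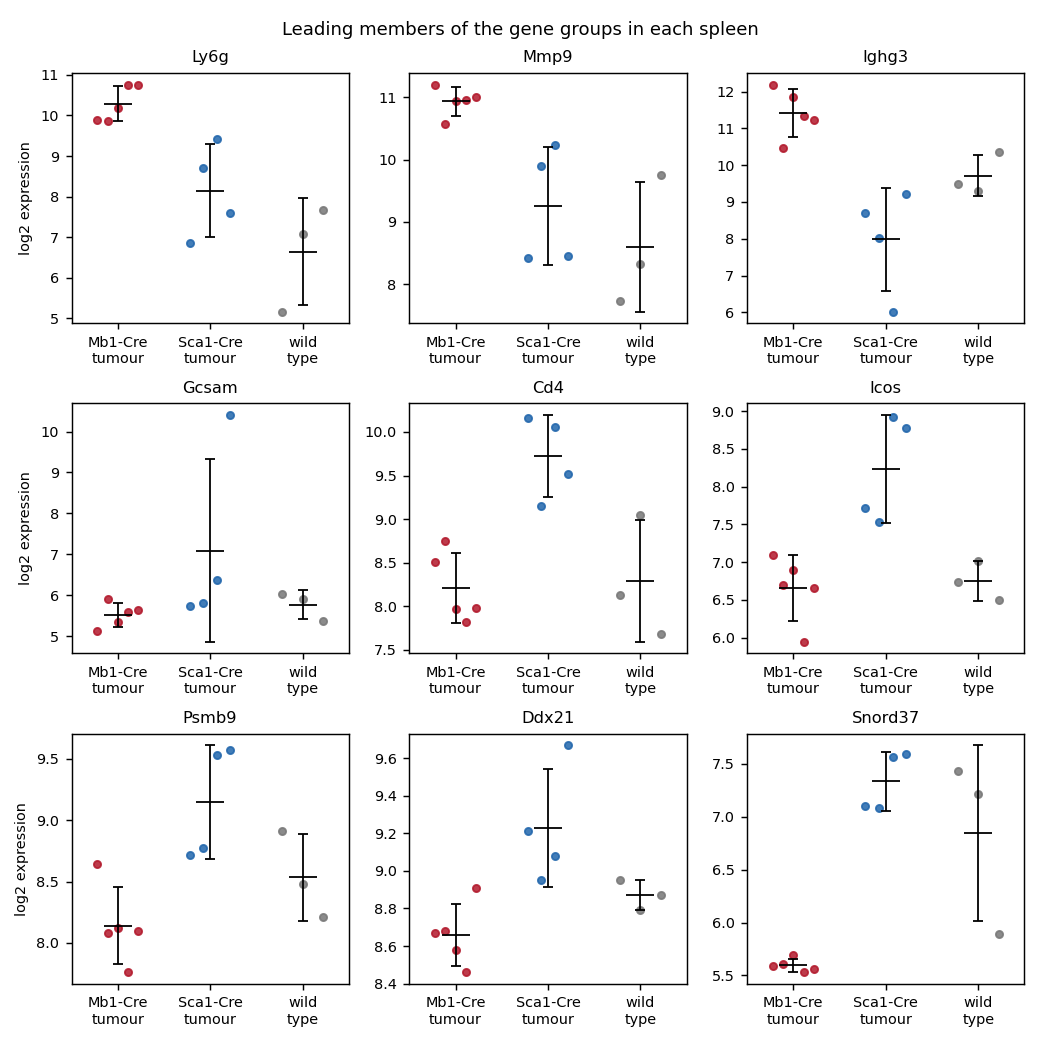
Log2 expression of leading members of the lists in each spleen, with 5 Mb1-Cre tumours (red), 4 Sca1-Cre tumours (blue) and 3 wild-type spleens (grey); bars are the group mean and 1 SD. Ly6g, Mmp9 and Ighg3 are higher in every Mb1-Cre tumour than in any Sca1-Cre tumour, Cd4, Icos, Psmb9, Ddx21 and Snord37 are lower, and Gcsam is high in Sca1-Cre tumour 4 alone.

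The remaining lists gave smaller medians. Mast cell and basophil genes stood at 0.32, inflammatory mediators at 0.20, immediate early genes at 0.19, stroma and matrix at 0.10, precursors of B cells at 0.07, megakaryocyte and platelet genes at 0.06, and stem and progenitor genes at 0.04. With 1 array left out these medians ranged from 0.07 to 0.51, -0.04 to 0.30, -0.08 to 0.32, 0.01 to 0.15, 0.06 to 0.13, -0.09 to 0.18 and -0.02 to 0.11 in the same order. The lowest values came without Sca1-Cre tumour 1 for mast cell and stem and progenitor genes, without Sca1-Cre tumour 4 for precursors of B cells and without Mb1-Cre tumour 1 for the others.

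Stem and progenitor genes are given in full because Ly6a marks such cells, and any link of their values to the driver was not tested. Of 13 genes 8 had a difference above 0 and 5 below, and 0 were called by limma. Between the groups 2 did not overlap and were higher, against 2.43% of all genes. An unadjusted p under 0.05 with a higher value was reached by 4, against 7.13% of all genes. The pair without overlap, named after their values were seen, were Erg and Cd34, which endothelial cells express as well. Erg, a transcription factor, read 6.60, 7.65, 6.66, 7.45 and 8.06 in Mb1-Cre tumours, against 5.30, 6.16, 6.36 and 4.65 in Sca1-Cre tumours (1.66 ± 0.50, limma adjusted p = 0.121). The last of these values was near background. Cd34, a surface sialomucin, read 5.33 to 5.94 in Mb1-Cre and 4.75 to 5.29 in Sca1-Cre tumours (0.65 ± 0.19, limma adjusted p = 0.112). The endothelial list also stood above 0, as given above, and its part in these values was not tested.

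Other lists stood below 0, with marginal zone genes at -0.42, follicular B cell genes at -0.35, dendritic cell genes at -0.28, respiratory chain genes at -0.25, glycolysis at -0.20, the unfolded protein response at -0.19, p53 targets at -0.18, B cell receptor signalling at -0.16 and the Bcl2 family at -0.07. Without Sca1-Cre tumour 1 the marginal zone median was -0.06, the follicular one 0.10 with 4 of 6 genes above 0, and the dendritic one -0.03. Without Sca1-Cre tumour 3 the follicular median was -0.74. Over all left-out arrays the ranges were -0.33 to -0.18 for the respiratory chain, -0.25 to -0.04 for glycolysis, -0.30 to -0.04 for the unfolded protein response, -0.33 to -0.07 for p53 targets, -0.26 to -0.08 for B cell receptor signalling and -0.11 to -0.01 for the Bcl2 family. B cell receptor signalling, the pathway HGAL acts on, had 13 of 15 genes below 0, 0 without overlap and 1 with an unadjusted p under 0.05.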

How the data were processed

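Total RNA of whole spleens was extracted with Trizol, biotin-labelled and put on Affymetrix arrays, per the labels' protocols. The authors deposited log2 values, 1 per probe set and array, made with RMA in the oligo package, per the submitters' processing notes; no source used here gives their versions or the build. They were used as deposited, and 0 columns were unused. Of 41345 probe sets, 23521 carried 1 gene symbol, 1814 several and 16010 none; 23328 matched the gene table by gene identifier. Each of 22180 genes was represented by its brightest probe set on average over 19 arrays (1082 had several), with no filter on dim genes. One limma 3.58.1 fit (R 4.3.3) of group means over 19 arrays, with 14 residual and 2.46 prior degrees of freedom, gave the contrast Mb1-Cre minus Sca1-Cre tumour. Tests were two-sided, with Benjamini-Hochberg adjustment over all genes and a call at an adjusted p under 0.05. The fit was tested on simulated data.

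The members and gene lists were chosen with earlier results of these data known. Named genes were Gcsam, Cd79a, Ly6a and Ptprc where measured; up to 15 called genes per direction without overlap, filled to 10 with the smallest p where fewer were called, without small RNAs, predicted and sex-linked genes or receptor segments; and from each described list the first 3 members and up to 4 with the smallest p. Small RNA, ribosomal protein and immunoglobulin families were added by symbol, and their members are named by smallest p as an exception. Alternatives were other normalizations, filters, probe set rules, fits and variance models, a replicate block, a sex covariate, pancreatic arrays left out and 1 array left out at a time; only arrays with Y-linked signal were added later. The number of arrays limits the precision. Python 3.11.15, pandas 2.3.3 and matplotlib 3.10.9 made the tables and figures.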

Additional observations from a re-analysis of the deposited data

Results flagged for a closer look

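Of 300 sets of 4 or 5 arrays (values of a named gene or a list mean within a group), 20 had an extreme array whose gap to its nearest neighbour exceeded Dixon's 95% critical value, where chance gives about 1 in 20. They fell on Mb1-Cre tumour 1 in 7 cases, Mb1-Cre tumours 2 and 5 in 1 each, Sca1-Cre tumour 1 in 6, Sca1-Cre tumour 3 in 2 and Sca1-Cre tumour 4 in 3. No cause was tested.

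Mb1-Cre tumour 1 was the highest of its group for Sh2d1a (7.33, others 6.24 to 6.43), Tox (7.0, others 5.76 to 6.03) and Ifng (6.59, others 4.90 to 5.26), and for the list means of megakaryocyte and platelet genes (7.34), p53 targets (6.98) and inflammatory mediators (7.20). It was the lowest for Fech, the last enzyme of haem synthesis (10.52, others 11.88 to 12.42). Mb1-Cre tumour 2 had an exocrine pancreas mean of 7.18, and Mb1-Cre tumour 5 had the highest Hacd3 (7.75, others 7.23 to 7.34).

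Sca1-Cre tumour 1 was the lowest of its group for Cdk1 (6.59, others 8.61 to 8.91), Aurka (6.48, others 8.20 to 8.53) and the mitosis mean (6.88, others 8.91 to 8.93). It was the highest for Ncr1, a receptor of NK cells (8.37, others 6.89 to 7.14), and for the immediate early (8.72) and Gimap GTPase (9.43) means. Sca1-Cre tumour 3 was the lowest for Spib (7.77, others 9.37 to 9.65) and for the MHC class II mean (9.19, others 10.08 to 10.16). Sca1-Cre tumour 4 was the highest for Gcsam (10.41, others 5.74 to 6.38) and for the germinal centre mean (9.27, others 6.79 to 6.85), and the lowest for Slc40a1 (7.23, others 9.02 to 9.20).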

How the results depend on the processing

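The count of 9 called genes moved with most settings, and the causes were not tested. limma called 14 genes with array weights, 33 with a covariate for sex, 29 with every probe set tested by itself, 5 with a variance trend and robust prior, 5 with only the 9 arrays of both groups (1 among the 9) and 1 with only the 13 tumour arrays. It called 3 after median centring, 4 among genes above the median level and 2 when the probe sets of a gene were averaged. With both pancreatic arrays (Mb1-Cre tumour 2 and wild type 2) left out it called 0 (3421 at an unadjusted p under 0.05). Leaving out 1 array gave 0 to 63. Cyclic loess (11), quantile normalization (6) and, chosen after seeing the data, only arrays with Y-linked signal (11) kept the count within 1.5 times, but only 8, 4 and 3 of these calls were among the 9. The replicate block gave 2 calls, Apol9a and G0s2. Deviations of same-numbered arrays correlated at 0.338, -0.207, -0.198 and -0.089, and those of differently numbered arrays at -0.443 to 0.325. With so few arrays these values cannot settle whether replicate numbers pair the arrays.

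Of the differences of named genes under all alternatives, 2283 kept their direction and side of the threshold, 49 gained a call, 74 lost one and 27, of 6 genes, turned. Adgre1 (0.13) was -0.33 with array weights and -0.37 with Y-linked arrays only, and -0.16 to 0.57 with 1 array left out. Spic (0.22) and Myc (0.02) were both -0.04 without the pancreatic arrays, Myc was -0.03 after median centring, and with 1 array left out they were -0.14 to 0.43 and -0.11 to 0.23. Ncr1 (-0.04) was 0.04 with the sex covariate and with quantile normalization, 0.07 with cyclic loess and with the replicate block, 0.02 with Y-linked arrays only and -0.24 to 0.29 with 1 array left out. B2m (-0.06) was 0.11 with cyclic loess, 0.02 with Y-linked arrays only and -0.12 to 0.02 with 1 array left out, and Bcl6 (-0.33) was -0.56 to 0.06. Of the list medians, 1023 moved by less than the spread between arrays and 12 by more, among them ribosomal protein genes at -0.19 with cyclic loess.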
